A study of Bos taurus with 15 samples.

Results

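WNT ligands, their receptors and the proteins that modulate them were followed in cultured bovine granulosa cells (GC), the follicle cells that surround the oocyte and make oestradiol. The 45 gene symbols considered cover WNT ligands, frizzled receptors with the coreceptors LRP5 and LRP6, secreted antagonists, the R-spondin axis, and a last group of TCF/LEF transcription factors, feedback genes and TCIM. A symbol was matched to the array when a transcript cluster (the array's gene-level probe set) carried exactly that symbol in the platform annotation. This found 43 of the 45 members on 44 clusters, because RSPO3 had 2, out of 18010 genes named by a single symbol and 26773 clusters in all. FZD6 and WNT4 were not analysed here.

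The experiment asked how GC respond to L-lactate, a metabolite that builds up in the follicle around ovulation, and measured mRNA on the Bovine Gene 1.0 ST array in 3 groups of 5 samples. One group received 30 mM sodium L-lactate, a vehicle control received 30 mM NaCl, and the last was left untreated. Every culture, untreated ones included, was serum-free and on collagen and contained FSH at 20 ng/ml, IGF-1 at 50 ng/ml, androstenedione at 2 µM and insulin at 10 ng/ml, and all were collected on day 8. The cells were pooled from abattoir ovaries with follicles under 6 mm and frozen before plating, and nothing in the sources ties a replicate to its own pool, so a p-value here measures only the spread between these samples, which may be technical.

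WNT proteins are secreted, lipid-modified ligands that bind frizzled (FZD) receptors. Together with LRP5 or LRP6 this stops the degradation of beta-catenin, which then enters the nucleus and acts with TCF/LEF factors on target genes, while noncanonical WNTs signal without beta-catenin. SFRP, DKK and WIF1 proteins block the pathway outside the cell, and the ligases ZNRF3 and RNF43 clear FZD from the membrane unless R-spondins, bound to LGR receptors, hold them back. In rodents, beta-catenin adds to the FSH-driven expression of the aromatase gene CYP19A1 in GC, and Wnt4, Fzd1 and Sfrp4 follow the ovulatory gonadotrophin signal.

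Values are log2 signals, and 1 unit is a doubling. Array medians lay between 4.52 and 4.60, and arrays of the same group correlated at 0.995 to 0.997 across clusters. A gene is called differentially expressed, and said to rise or fall, where limma's adjusted p over all 26773 clusters was under 0.05 and the fold change above 1.5, the thresholds of the study's methods. A gene that passed only the adjusted p is described by its values. Signals of different genes come from different probes and are not compared.

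The granulosa markers averaged above the array medians except HSD17B1, and several moved with treatment. HSD17B1 averaged 3.79 in L-lactate, 3.88 in NaCl and 4.09 in untreated cells. The mean over 10 granulosa markers was 7.91 to 8.03 in L-lactate arrays, 8.29 to 8.41 in NaCl arrays and 8.15 to 8.23 in untreated arrays. CYP19A1 fell by 1.22 on the log2 scale in L-lactate cells against NaCl cells (SE 0.06, limma adjusted p = 2.7e-09) and AMH fell by 0.74 (SE 0.08, adjusted p = 6.4e-06), the other 8 markers not being called. The adjusted p was passed by 6 of the 10, all lower in L-lactate cells (60%, against 22.2% of all clusters). Among them were FOXL2 (-0.58, adjusted p = 7.3e-06) and INHA (-0.41, adjusted p = 6.0e-07). Against untreated cells CYP19A1 was the only granulosa marker called, at -0.77 in L-lactate cells (SE 0.06, adjusted p = 2.2e-07), and NaCl cells had none. There 7 of the 10 passed the adjusted p in L-lactate cells, 2 higher and 5 lower (70%, against 27.1% of all clusters). In NaCl cells 7 also passed, 6 higher and 1 lower (70%, against 11.9%). Of 6 stromal markers on the array, 3 were called between L-lactate and NaCl cells, where 1.28% of all clusters were called higher and 0.601% lower. COL1A1 (1.19) and PDGFRA (0.59) were higher and COL1A2 (-0.60) lower in L-lactate cells. Against untreated cells 4 of the 6 were called in L-lactate cells, COL1A1 (0.68) and PDGFRA (0.86) higher and COL1A2 (-1.61) and COL3A1 (-1.10) lower, and 2 in NaCl cells, COL1A2 (-1.02) and COL3A1 (-0.67), both lower. Of all clusters, 1.93% were called higher and 1.33% lower in L-lactate, and 0.403% higher and 0.743% lower in NaCl cells. The adjusted p was passed by 5 of the 6 in each L-lactate comparison (83.3%, against 22.2% and 27.1% of all clusters). For NaCl against untreated cells all 6 passed it (100%, against 11.9%). The stromal mean was 8.77 to 8.92 in L-lactate, 8.45 to 8.84 in NaCl and 8.98 to 9.11 in untreated arrays. Endothelial (3.66 to 3.86), leukocyte (4.06 to 4.34) and oocyte (3.08 to 3.32) marker means lay below the array medians in every array, and none of their 15 genes was called in any comparison. Single markers differed from these means: the endothelial VWF and the leukocyte CD68 and CD14 averaged above the medians in every group. VWF was 0.57 higher in L-lactate than in untreated cells (adjusted p = 1.6e-06). CD68 was 0.44 higher in L-lactate than in NaCl cells (adjusted p = 6.0e-05). The mean of 3 theca markers was 5.73 to 6.12 in L-lactate, 5.81 to 6.15 in NaCl and 6.04 to 6.51 in untreated arrays, and INSL3, one of them, was called lower than in untreated cells in both treated groups. Of 4 surface epithelium markers, with means of 4.09 to 4.60, only MSLN was called, lower in L-lactate than in NaCl cells. What part these shifts play in the WNT values below was not tested, and in bulk RNA fewer cells of a type and less RNA per cell cannot be told apart.

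L-lactate against NaCl, the comparison at equal added sodium with lactate in place of chloride, called 1 of 43 members higher, TCIM, and 1 lower, FZD1. Across all clusters 1.28% were called higher and 0.601% lower. A further 15 members passed the adjusted p but not the fold threshold, so that 17 members (39.5%) passed the adjusted p, 9 of them higher and 8 lower in L-lactate cells, against 22.2% of all clusters. The arrays of L-lactate and NaCl cells did not overlap for 15 members (34.9%), against 19.1% of clusters. The median difference was -0.04 over the members and -0.01 over all clusters, and its median size 0.11 against 0.09.

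L-lactate against untreated cells called 2 members higher, WNT5A and FZD5, and 4 lower, FZD1, LEF1, TCIM and WNT5B, where 1.93% of all clusters were higher and 1.33% lower. In this comparison 18 members (41.9%) passed the adjusted p, 5 higher and 13 lower, against 27.1% of clusters. The groups did not overlap for 16 members (37.2%), against 22.4% of clusters. NaCl against untreated cells called no member higher (0 also by the methods' t-test) and 2 lower, TCIM and WNT5B, where 0.403% of clusters were higher and 0.743% lower. There 10 members (23.3%) passed the adjusted p, against 11.9% of clusters, and 10 did not overlap, against 11%. An unadjusted p under 0.05 was reached in either direction by 20 members for L-lactate against NaCl (31% of clusters), 23 for L-lactate against untreated (35.7% of clusters) and 11 for NaCl against untreated cells (23.2% of clusters). The 3 comparisons share arrays and are not independent of each other.

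**Figure D1:**
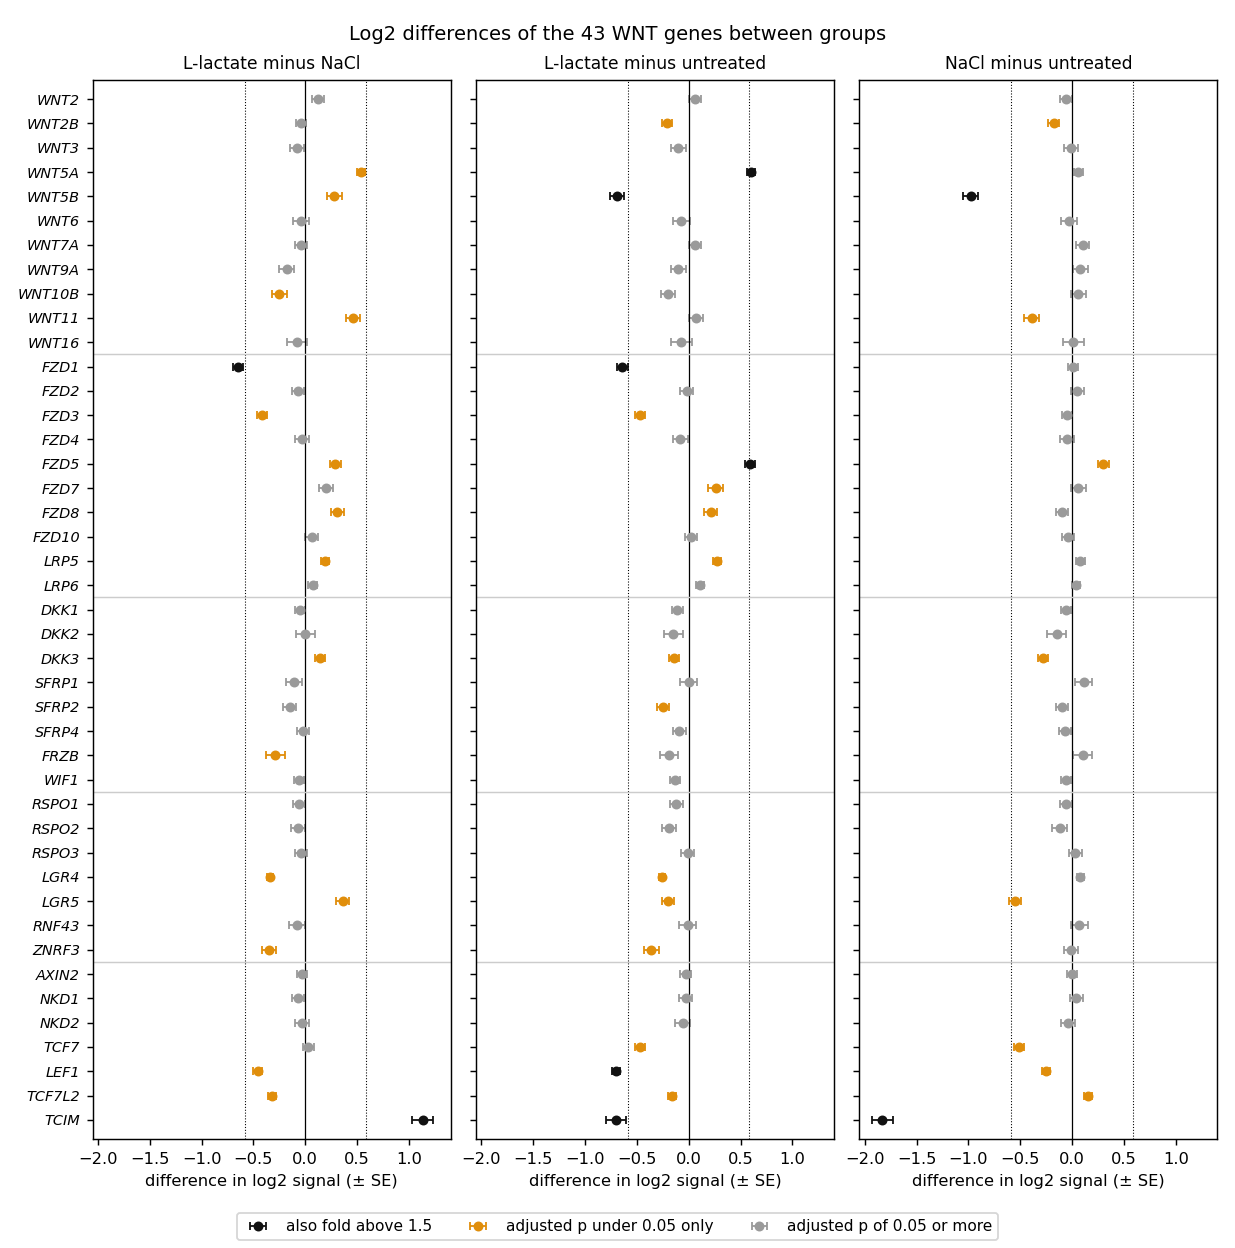
Log2 difference of each of the 43 members in the 3 comparisons, with bars of ± SE, grouped by role. Most members lie near 0, and the widest span belongs to TCIM, at 1.13 for L-lactate against NaCl and -1.83 for NaCl against untreated cells. Black points mark the members called differentially expressed.

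Among the 11 WNT ligands, none was called between L-lactate and NaCl cells, although 4 (36.4%) passed the adjusted p, against 22.2% of all clusters. WNT5A rose and WNT5B fell in L-lactate against untreated cells. WNT5A, the ligand best known for noncanonical signalling, measured 7.63, 7.63, 7.52, 7.57 and 7.59 in the L-lactate cells, 7.09, 6.97, 7.07, 7.0 and 7.12 in the NaCl cells and 6.98, 7.05, 6.92, 6.90 and 7.09 in the untreated cells. All 5 L-lactate arrays lay above every other array, and the NaCl and untreated arrays overlapped. L-lactate cells exceeded untreated cells by 0.60 (SE 0.04), a 1.52-fold rise (adjusted p = 8.1e-08), which drops to 0.58, under the fold threshold, without untreated replicate 3 or 4. They exceeded NaCl cells by 0.54 (SE 0.04, adjusted p = 3.8e-07), which at 1.45-fold is short of the fold threshold. NaCl and untreated cells differed by 0.06 (95% interval -0.03 to 0.16).

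WNT5B, the close relative of WNT5A, took another pattern. The WNT5B signals were 5.76, 5.57, 5.78, 5.88 and 5.54 in L-lactate cells, 5.36, 5.53, 5.42, 5.44 and 5.36 in NaCl cells and 6.31, 6.54, 6.38, 6.43 and 6.33 in untreated cells. The untreated arrays stood above all 10 treated arrays, and the L-lactate arrays, the lowest at 5.54, just cleared the NaCl arrays, the highest at 5.53. WNT5B fell 1.61-fold in L-lactate cells (log2 -0.69, SE 0.07, adjusted p = 1.2e-06) and 1.97-fold in NaCl cells (-0.98, SE 0.07, adjusted p = 1.9e-07), each against untreated cells. Between L-lactate and NaCl cells the difference was 0.28 (SE 0.07, adjusted p = 0.0051), under the fold threshold.

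WNT11, another noncanonical ligand, measured 5.12, 5.20, 5.20, 5.23 and 5.13 in L-lactate cells, 4.92, 4.59, 4.66, 4.64 and 4.79 in NaCl cells and 5.13, 5.04, 5.04, 4.98 and 5.36 in untreated cells. The NaCl arrays were the low ones, below every L-lactate and untreated array, while L-lactate and untreated arrays overlapped. The difference was 0.46 for L-lactate against NaCl (SE 0.07, adjusted p = 2.6e-04), 0.07 for L-lactate against untreated (adjusted p = 0.57) and -0.39 for NaCl against untreated cells (SE 0.07, adjusted p = 0.0021), none past the fold threshold.

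WNT10B, a canonical ligand, averaged 4.27 ± 0.14 in L-lactate and 4.52 ± 0.14 in NaCl cells (SD, n = 5 each), with overlapping arrays and a difference of -0.25 (SE 0.07, adjusted p = 0.019). WNT2B averaged 6.46 ± 0.10 in L-lactate, 6.49 ± 0.05 in NaCl and 6.67 ± 0.06 in untreated cells, and both treated groups lay wholly below the untreated arrays (adjusted p = 0.0041 for L-lactate and 0.030 for NaCl). The other 6 ligands, WNT2, WNT3, WNT6, WNT7A, WNT9A and WNT16, passed the adjusted p in no comparison, with differences between -0.18 (WNT9A, L-lactate against NaCl) and 0.12 (WNT2, L-lactate against NaCl).

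**Figure D2:**
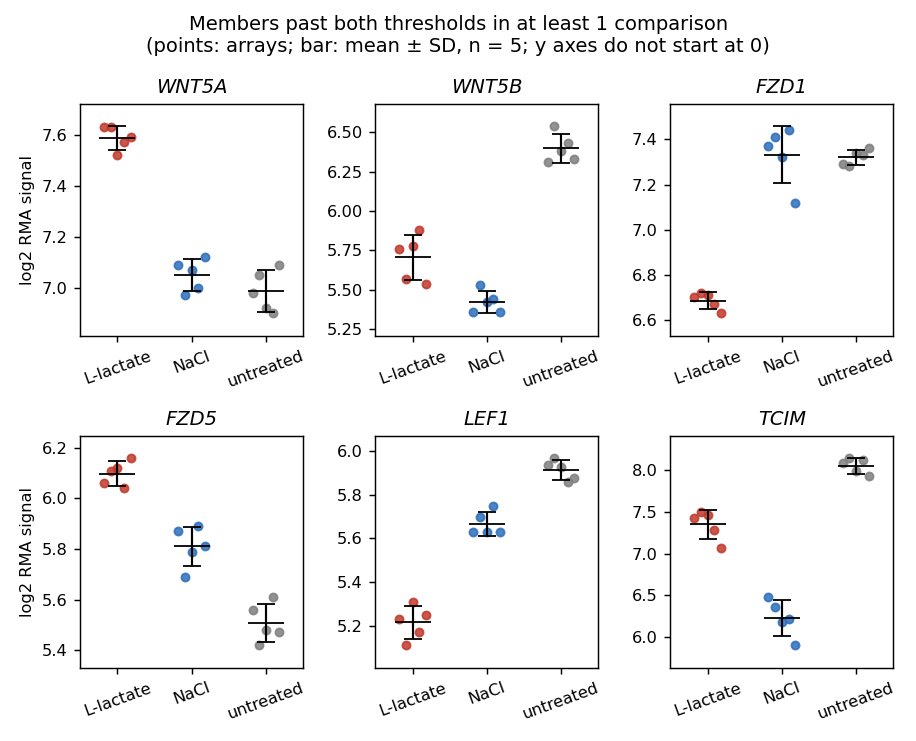
Log2 signal of the 6 members called in at least 1 comparison, in L-lactate, NaCl and untreated cells (points are arrays, bars the mean ± SD, n = 5). The L-lactate arrays stand alone, below both other groups for FZD1 and LEF1 and above both for WNT5A and FZD5, while for TCIM and WNT5B they lie between NaCl at the bottom and untreated cells at the top.

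Of the 10 receptors and coreceptors, FZD1 fell in L-lactate cells against both other groups and FZD5 rose against untreated cells. FZD1, a receptor whose rodent counterpart responds to the ovulatory signal in GC, gave signals of 6.70, 6.72, 6.71, 6.67 and 6.63 in L-lactate cells, 7.37, 7.41, 7.32, 7.44 and 7.12 in NaCl cells and 7.29, 7.28, 7.34, 7.33 and 7.36 in untreated cells. The L-lactate arrays were all below the lowest of the others, at 7.12. It fell 1.57-fold against NaCl (log2 -0.65, SE 0.05, adjusted p = 2.1e-07) and 1.56-fold against untreated cells (-0.64, SE 0.05, adjusted p = 1.7e-07). NaCl differed from untreated cells by 0.01 (95% interval -0.10 to 0.12).

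FZD5 was graded across the groups instead. It measured 6.06, 6.11, 6.12, 6.04 and 6.16 in L-lactate cells, 5.87, 5.69, 5.79, 5.89 and 5.81 in NaCl cells and 5.56, 5.42, 5.48, 5.61 and 5.47 in untreated cells. No array of any group overlapped another group. FZD5 rose 1.51-fold in L-lactate against untreated cells (log2 0.59, SE 0.05, adjusted p = 1.2e-07), just past the fold threshold. That call ends, at 0.57 to 0.58, without L-lactate replicate 5 or untreated replicate 2, 3 or 5, or when the arrays are quantile normalized again. The steps from L-lactate to NaCl (0.29, SE 0.05, adjusted p = 2.3e-04) and from NaCl to untreated cells (0.30, SE 0.05, adjusted p = 3.2e-04) were about equal in size and short of it.

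FZD3, linked to planar polarity, was at 7.46, 7.51, 7.49, 7.51 and 7.43 in L-lactate cells, 7.74, 8.02, 7.93, 7.95 and 7.83 in NaCl cells and 8.04, 7.95, 7.94, 7.82 and 7.99 in untreated cells. As for FZD1, the L-lactate arrays lay below all others and the other groups overlapped, with a difference of -0.42 from NaCl (SE 0.05, adjusted p = 3.0e-05) and -0.47 from untreated cells (adjusted p = 6.0e-06). FZD8 averaged 6.13 ± 0.04 in L-lactate, 5.82 ± 0.12 in NaCl and 5.92 ± 0.11 in untreated cells. It was 0.31 above NaCl in L-lactate cells (SE 0.06, adjusted p = 0.0012), with no overlap, and 0.21 above untreated cells (adjusted p = 0.016), with overlap.

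The coreceptor LRP5 averaged 6.84 ± 0.05 in L-lactate, 6.64 ± 0.06 in NaCl and 6.56 ± 0.08 in untreated cells. Its L-lactate arrays lay above all others, by 0.19 on average over NaCl (SE 0.04, adjusted p = 0.0032) and 0.27 over untreated cells (adjusted p = 1.2e-04). Its partner LRP6 did not pass, at 0.07 over NaCl (95% interval -0.02 to 0.16) and 0.11 over untreated cells (0.02 to 0.20, adjusted p = 0.066). FZD7 passed the adjusted p against untreated cells only, at 0.26 (adjusted p = 0.016) with overlapping arrays. FZD2, FZD4 and FZD10 passed in no comparison, and FZD4 differed by -0.03 between L-lactate and NaCl cells (95% interval -0.19 to 0.12). By the adjusted p, L-lactate cells thus had 3 receptor genes above and 2 below their level in NaCl cells (50% of the 10, against 22.2% of all clusters). The receptors did not move one way, and neither did all clusters, with 10.7% higher and 11.5% lower by the adjusted p.

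The 8 secreted antagonists held no called member in any comparison, where 0.403% to 1.93% of all clusters were called higher and 0.601% to 1.33% lower. The adjusted p was passed by 2 (25%, against 22.2% of clusters) for L-lactate against NaCl and by 2 (25%, against 27.1%) for L-lactate against untreated. For NaCl against untreated cells 1 passed it (12.5%, against 11.9%). These shares were near those of all clusters. FRZB, which binds WNTs through a frizzled-like domain, averaged 2.37 ± 0.10 in L-lactate, 2.66 ± 0.08 in NaCl and 2.56 ± 0.24 in untreated cells, all well under the array medians. The difference of -0.29 between L-lactate and NaCl (SE 0.09, adjusted p = 0.034) came without overlap. DKK3, a dickkopf relative whose place in WNT signalling is less clear, averaged 7.46 ± 0.07 in L-lactate, 7.33 ± 0.07 in NaCl and 7.61 ± 0.06 in untreated cells. It differed by 0.14 between L-lactate and NaCl (adjusted p = 0.047), by -0.14 between L-lactate and untreated (adjusted p = 0.030) and by -0.28 between NaCl and untreated cells (adjusted p = 7.6e-04), so that the L-lactate mean lay between the controls. The L-lactate arrays of DKK3 overlapped both. Across alternative fits its adjusted p reached 0.12 against NaCl and 0.078 against untreated cells.

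SFRP2, a soluble WNT-binding protein, measured 9.93 ± 0.09 in L-lactate, 10.09 ± 0.10 in NaCl and 10.19 ± 0.07 in untreated cells. It differed by -0.25 between L-lactate and untreated cells, without overlap (adjusted p = 0.0027), and the difference from NaCl was -0.15 (95% interval -0.27 to -0.04, adjusted p = 0.061). DKK1, DKK2, SFRP1, SFRP4 and WIF1 passed in no comparison, with differences between -0.15 and 0.11. Their mean signals of 2.2 to 3.84 lay below 4.54, the median of all cluster means. SFRP4 is a gene that responds to the ovulatory signal in the rodent ovary, and its difference between L-lactate and NaCl cells was -0.02 (95% interval -0.15 to 0.11).

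In the R-spondin axis, 7 members, no gene was called, where 0.403% to 1.93% of all clusters were called higher and 0.601% to 1.33% lower. The adjusted p was passed by 3 in each L-lactate comparison (42.9%, against 22.2% of clusters for NaCl and 27.1% for untreated cells as the control). For NaCl against untreated cells 1 passed it (14.3%, against 11.9%). LGR5 separated all 3 groups, and LGR4 and ZNRF3 set L-lactate arrays apart from NaCl and untreated arrays, which overlapped. LGR4, an R-spondin receptor, read 8.34, 8.36, 8.37, 8.36 and 8.47 in L-lactate cells, 8.69, 8.71, 8.71, 8.75 and 8.73 in NaCl cells and 8.61, 8.64, 8.62, 8.62 and 8.69 in untreated cells. The L-lactate arrays were lowest, with differences of -0.34 from NaCl (SE 0.03, adjusted p = 1.3e-06) and -0.26 from untreated cells (adjusted p = 1.4e-05). LGR5, its stem cell-associated relative, read 3.34, 3.30, 3.28, 3.32 and 3.32 in L-lactate cells, 2.96, 2.98, 3.02, 2.80 and 3.04 in NaCl cells and 3.38, 3.50, 3.44, 3.75 and 3.49 in untreated cells. Here the NaCl arrays were lowest and the L-lactate arrays intermediate, with no overlap between any groups.

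LGR5 differed by 0.36 between L-lactate and NaCl (SE 0.06, adjusted p = 5.3e-04), by -0.20 between L-lactate and untreated (adjusted p = 0.028) and by -0.55 between NaCl and untreated cells (SE 0.06, adjusted p = 2.2e-05), at signals below the array medians. ZNRF3, the ligase that removes FZD receptors, had 5.65, 5.40, 5.66, 5.72 and 5.54 in L-lactate cells, 6.04, 6.03, 5.74, 6.02 and 5.87 in NaCl cells and 5.87, 5.99, 5.97, 5.95 and 5.97 in untreated cells. L-lactate arrays were lowest, with differences of -0.35 from NaCl (SE 0.07, adjusted p = 0.0012) and -0.36 from untreated cells (adjusted p = 7.2e-04), and the closest L-lactate and NaCl arrays were at 5.72 and 5.74. Its paralogue RNF43 differed by -0.08 from NaCl (95% interval -0.26 to 0.09). RSPO1, RSPO2 and RSPO3 passed in no comparison, for RSPO3 on neither of its clusters, and RSPO2 came nearest at -0.19 between L-lactate and untreated cells (adjusted p = 0.069). Mean signals of RNF43 (3.58), RSPO1 (4.09), RSPO2 (3.26) and RSPO3 (3.02 on its brighter cluster) lay below 4.54, the median of all cluster means.

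**Figure D3:**
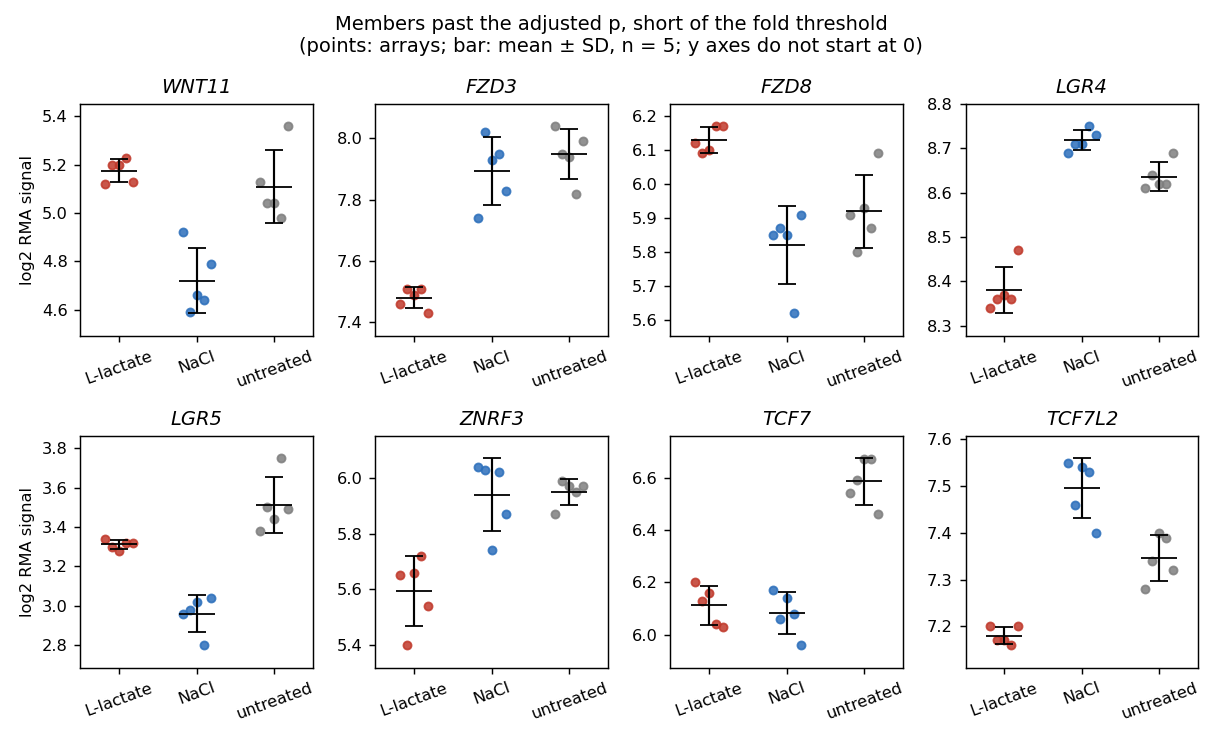
Log2 signal of 8 members that passed the adjusted p but not the fold threshold (points are arrays, bars the mean ± SD, n = 5). L-lactate arrays are lowest for FZD3, LGR4, ZNRF3 and TCF7L2, NaCl arrays are lowest for WNT11 and LGR5, and for TCF7 both treated groups lie below the untreated arrays, which start at 6.46.

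The group of nuclear factors, feedback genes and TCIM held the member with the widest range. TCIM encodes a small protein that, in human cells, relieves the inhibitor Chibby from beta-catenin. It measured 7.43, 7.50, 7.47, 7.29 and 7.07 in L-lactate cells, 6.48, 6.36, 6.18, 6.21 and 5.90 in NaCl cells and 8.09, 8.15, 7.99, 8.12 and 7.93 in untreated cells. The groups did not overlap and L-lactate lay between the controls. TCIM rose 2.18-fold in L-lactate against NaCl cells (log2 1.13, SE 0.10, adjusted p = 8.7e-07) and fell 1.63-fold against untreated cells (-0.70, SE 0.10, adjusted p = 6.5e-05). NaCl cells were 3.55-fold below untreated cells (-1.83, SE 0.10, adjusted p = 4.1e-08), so the direction of the L-lactate difference depends on which control it is set against. In the RefSeq annotation 1 protein-coding gene separates TCIM from SFRP1, which passed in none of the comparisons.

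LEF1, a transcription factor that carries beta-catenin to DNA, measured 5.23, 5.11, 5.31, 5.17 and 5.25 in L-lactate cells, 5.63, 5.70, 5.63, 5.75 and 5.63 in NaCl cells and 5.94, 5.97, 5.93, 5.86 and 5.88 in untreated cells. The groups were separate, with L-lactate lowest. LEF1 fell 1.63-fold against untreated cells (log2 -0.70, SE 0.04, adjusted p = 7.4e-09). The difference was -0.46 against NaCl (SE 0.04, adjusted p = 9.3e-07) and -0.25 for NaCl against untreated cells (SE 0.04, adjusted p = 8.6e-04), both short of the fold threshold.

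TCF7L2, of the same family, averaged 7.18 ± 0.02 in L-lactate, 7.50 ± 0.06 in NaCl and 7.34 ± 0.05 in untreated cells. It was lowest in L-lactate and, unlike LEF1, NaCl lay at or above untreated cells, with differences of -0.32 for L-lactate against NaCl (SE 0.04, adjusted p = 7.7e-06), -0.16 for L-lactate against untreated (adjusted p = 0.0021) and 0.15 for NaCl against untreated cells (adjusted p = 0.0092). TCF7 averaged 6.11 ± 0.07 in L-lactate, 6.08 ± 0.08 in NaCl and 6.59 ± 0.09 in untreated cells. L-lactate and NaCl cells differed by 0.03 (95% interval -0.08 to 0.14), and both lay wholly below untreated cells, with differences of -0.47 for L-lactate (SE 0.05, adjusted p = 5.3e-06) and -0.51 for NaCl (SE 0.05, adjusted p = 1.1e-05). The TCF/LEF genes on the array thus showed different orders of the 3 groups.

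The feedback genes of this group, AXIN2, NKD1 and NKD2, showed no such separation. AXIN2, a direct target of beta-catenin often read as a measure of pathway activity, averaged 4.92 ± 0.04 in L-lactate, 4.96 ± 0.04 in NaCl and 4.95 ± 0.11 in untreated cells. L-lactate and NaCl cells differed by -0.03 (95% interval -0.13 to 0.07) and the groups overlapped. NKD1 and NKD2, inhibitors of dishevelled, passed in no comparison, with differences between -0.07 and 0.04.

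The members that passed fell into several orders of the groups. L-lactate arrays stood alone at the bottom for FZD1, FZD3, LGR4, ZNRF3, LEF1 and TCF7L2, and alone at the top for WNT5A, FZD5 and LRP5. The L-lactate mean lay between NaCl at the bottom and untreated at the top for TCIM, WNT5B, LGR5 and, with arrays overlapping both, DKK3. For these last 4 the change against untreated cells was larger in NaCl than in L-lactate cells, and the sign of the L-lactate difference was positive against NaCl and negative against untreated cells.

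Around the members, 104 other genes of the pathway were considered, of which 97 were on the array. L-lactate against NaCl called 6 of them higher and 2 lower, L-lactate against untreated cells 5 higher and 1 lower, and NaCl against untreated cells 0 higher and 3 lower. The adjusted p was passed by 34 of them (35.1%, against 22.2% of all clusters) for L-lactate against NaCl, by 39 (40.2%, against 27.1%) for L-lactate against untreated and by 23 (23.7%, against 11.9%) for NaCl against untreated cells. The shares of all clusters called higher and lower were 1.28% and 0.601%, 1.93% and 1.33%, and 0.403% and 0.743% in the same order. In the list of other ligands, receptors and extracellular regulators, 27 genes, the norrin gene NDP rose most. Norrin is a ligand that is not a WNT but activates FZD4 with LRP5 and the tetraspanin TSPAN12 in the vessels of the mouse and human retina. NDP measured 7.47, 7.39, 7.13, 7.30 and 7.31 in L-lactate cells, 5.61, 5.60, 5.44, 5.37 and 5.74 in NaCl cells and 6.11, 6.04, 5.95, 5.82 and 5.97 in untreated cells. Its lowest L-lactate array was more than 1 log2 unit above all others, and it rose 3.41-fold against NaCl (log2 1.77, SE 0.08, adjusted p = 6.4e-10) and 2.54-fold against untreated cells (1.34, SE 0.08, adjusted p = 6.3e-09).

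TSPAN12 measured 6.00, 6.15, 6.01, 5.85 and 5.78 in L-lactate cells, 4.61, 5.00, 4.39, 4.97 and 4.56 in NaCl cells and 5.60, 5.73, 5.60, 5.60 and 5.80 in untreated cells. The NaCl arrays stood apart below the rest, and L-lactate and untreated arrays overlapped. TSPAN12 rose 2.38-fold in L-lactate against NaCl cells (log2 1.25, SE 0.11, adjusted p = 6.1e-07), fell 1.94-fold in NaCl against untreated cells (-0.96, SE 0.11, adjusted p = 2.4e-05), and differed by 0.30 between L-lactate and untreated cells (adjusted p = 0.056). FZD4, the receptor of norrin, averaged 3.96 ± 0.15 in L-lactate, 3.99 ± 0.05 in NaCl and 4.04 ± 0.14 in untreated cells, all under the array medians.

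PORCN, the enzyme that attaches the lipid to WNTs, measured 8.81, 8.72, 8.77, 8.74 and 8.92 in L-lactate cells, 8.20, 8.28, 8.38, 8.15 and 8.30 in NaCl cells and 7.67, 7.66, 7.65, 7.75 and 7.67 in untreated cells. It was graded like FZD5, with no overlap between groups, and rose 2.17-fold in L-lactate against untreated cells (log2 1.12, SE 0.05, adjusted p = 3.8e-10). The differences of 0.53 from NaCl (SE 0.05, adjusted p = 8.9e-07) and of 0.58 between NaCl and untreated cells (SE 0.05, adjusted p = 1.1e-06) were under the fold threshold, the last one only just. WLS, the carrier that takes WNTs to the membrane, averaged 8.00 ± 0.05 in L-lactate, 8.00 ± 0.07 in NaCl and 8.03 ± 0.03 in untreated cells and passed in no comparison. FZD9, a receptor outside the member list, fell in L-lactate against NaCl cells, at 5.28 ± 0.10 in L-lactate, 5.90 ± 0.14 in NaCl and 5.62 ± 0.18 in untreated cells (log2 -0.63 for L-lactate against NaCl, SE 0.09, adjusted p = 6.2e-05).

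The list of the destruction complex, dishevelled and beta-catenin partners, 31 genes, held no called gene in any comparison. Past the adjusted p were 10 of them (32.3%, against 22.2% of all clusters) for L-lactate against NaCl, 10 (32.3%, against 27.1%) for L-lactate against untreated and 7 (22.6%, against 11.9%) for NaCl against untreated cells. CTNNB1, the gene of beta-catenin, averaged 9.85 ± 0.05 in L-lactate, 9.93 ± 0.04 in NaCl and 9.92 ± 0.04 in untreated cells, and L-lactate differed from NaCl by -0.07 (95% interval -0.15 to 0.00, adjusted p = 0.15). Its protein is regulated by degradation, which mRNA does not show. Of the list of planar polarity and other noncanonical genes, 21 on the array, only DAAM2, a formin that binds dishevelled, was called. It averaged 4.82 ± 0.17 in L-lactate, 4.19 ± 0.15 in NaCl and 3.98 ± 0.16 in untreated cells, and rose 1.54-fold against NaCl (log2 0.63, SE 0.09, adjusted p = 1.6e-04) and 1.79-fold against untreated cells (adjusted p = 6.6e-06).

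Among 18 genes known as beta-catenin targets, L-lactate against NaCl called 3 higher, CCND1, FOSL1 and NRCAM, and 1 lower, MYC, so the list did not move one way. These were 16.7% and 5.56% of the list, against 1.28% and 0.601% of all clusters. Because the list was chosen with earlier results of these data known, this contrast is a description and not a test. CCND1, the cyclin of early cell cycle entry, averaged 6.86 ± 0.21 in L-lactate, 5.90 ± 0.15 in NaCl and 5.53 ± 0.16 in untreated cells, a 1.95-fold rise against NaCl (log2 0.96, SE 0.10, adjusted p = 5.7e-06). MYC, a growth-promoting transcription factor, was at 6.73, 6.47, 6.56, 6.64 and 6.56 in L-lactate cells, 7.90, 7.87, 7.96, 7.76 and 7.67 in NaCl cells and 7.71, 7.78, 7.69, 7.90 and 7.71 in untreated cells. MYC fell 2.36-fold against NaCl (log2 -1.24, SE 0.06, adjusted p = 2.3e-09) and 2.25-fold against untreated cells (adjusted p = 2.9e-09), with every L-lactate array well below all others.

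FOSL1, a member of the AP-1 factors, averaged 6.59 ± 0.10 in L-lactate, 5.54 ± 0.06 in NaCl and 5.65 ± 0.16 in untreated cells, a 2.07-fold rise against NaCl (adjusted p = 3.5e-08) and 1.92-fold against untreated cells (adjusted p = 7.4e-08). NRCAM, a cell adhesion molecule, averaged 3.34 ± 0.11 in L-lactate, 2.74 ± 0.14 in NaCl and 3.35 ± 0.28 in untreated cells, all well under the array medians. NaCl was the low group (1.52-fold for L-lactate against NaCl, adjusted p = 1.0e-03). Leaving out single arrays ended the NRCAM calls, as it did that of DAAM2 against NaCl. SNAI2, a repressor known from epithelial-mesenchymal transition, averaged 8.48 ± 0.06 in L-lactate, 8.13 ± 0.14 in NaCl and 9.04 ± 0.09 in untreated cells. It fell 1.88-fold in NaCl against untreated cells (log2 -0.91, SE 0.06, adjusted p = 1.9e-07), and the difference of -0.56 for L-lactate against untreated cells (adjusted p = 4.6e-06) was short of the fold threshold. These targets also answer to signals other than WNT.

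**Figure D4:**
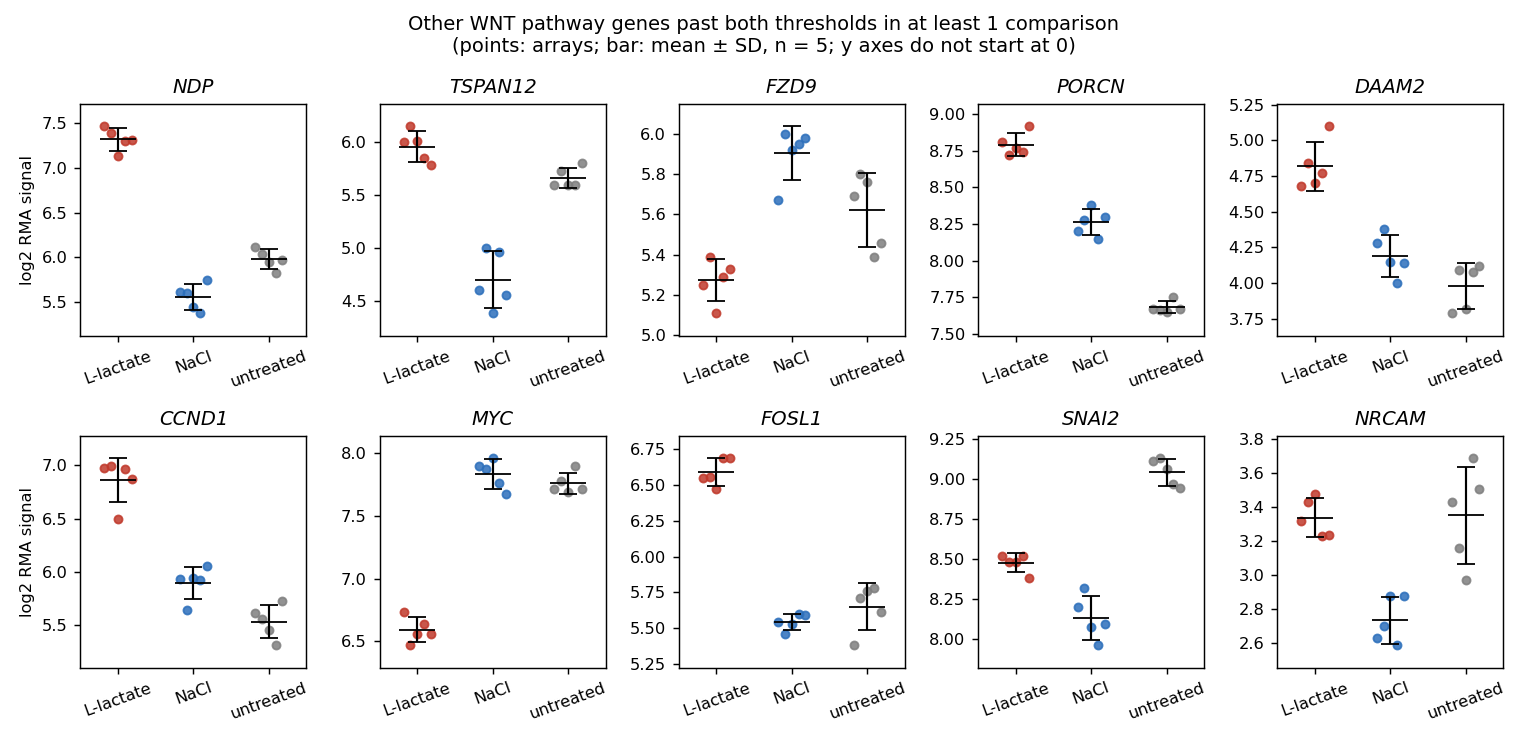
Log2 signal of the 10 other pathway genes called in at least 1 comparison (points are arrays, bars the mean ± SD, n = 5). NDP, PORCN, CCND1, FOSL1 and DAAM2 have L-lactate on top, MYC and FZD9 have it at the bottom, TSPAN12 and NRCAM have NaCl at the bottom, and SNAI2 has untreated cells on top at 8.94 to 9.13.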

How the data were processed

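The authors hybridised RNA of 15 cultures to Affymetrix Bovine Gene 1.0 ST arrays and deposited log2 gene-level signals, background-corrected, quantile normalized and summarised by RMA in Expression Console 1.4.1.46. The genome build behind the clusters is not given in the sources used here, and no coordinates are printed. Neither scan dates nor detection calls were used here. No per-sample column was left unused.

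Clusters were named from the platform annotation: 18457 carried 1 symbol, 688 several and 7628 none. Of the 43 gene IDs of members, 42 were in the RefSeq table (ARS-UCD2.0), all under the same symbol. RSPO3 was represented by its brighter cluster. All 26773 clusters of the 15 arrays were fitted together in limma 3.58.1 (R 4.3.3), with Benjamini-Hochberg adjustment over all clusters and without a filter. Figures were drawn with matplotlib 3.10.9. The script was tested on simulated data. With 5 arrays a group, the number of arrays limits the precision, and the smallest two-sided exact permutation p over 252 labellings is 0.00794, which is reached wherever groups do not overlap.

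Called members are given with every array. Those past only the adjusted p are named with values, and the rest by range. Other pathway genes are named where called. Members and lists were chosen with earlier results of these data known. Alternatives covered the arrays in the fit, the methods' t-test (their ANOVA of 2 groups), a trended robust prior, a replicate block, a signal filter at the median cluster mean of 4.54, centring, repeated quantile normalization, the fold threshold, averaging of clusters, and leaving out each array. Promoter motifs were not analysed here.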

Additional observations from a re-analysis of the deposited data

Results flagged for a closer look

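In 162 sets of 5 arrays (members and named pathway genes in each group), 11 had 1 array whose gap to the nearest other exceeded 0.71 of the set's whole range, a limit that chance passes in about 5% of such sets. In L-lactate cells these were WNT6 (4.48 in replicate 5, the others 4.85 to 4.89), FZD10 (3.43 in replicate 2, the others 3.23 to 3.28), SFRP4 (2.28 in replicate 1, the others 2.44 to 2.48), RSPO3 (3.22 in replicate 4, the others 2.92 to 2.98), RNF43 (3.32 in replicate 5, the others 3.61 to 3.62), LGR4 (8.47 in replicate 5, the others 8.34 to 8.37) and CCND1 (6.50 in replicate 3, the others 6.87 to 6.99). In NaCl cells they were FZD8 (5.62 in replicate 4, the others 5.85 to 5.91), WIF1 (3.27 in replicate 5, the others 3.08 to 3.10) and FZD9 (5.67 in replicate 1, the others 5.92 to 6.00). In untreated cells PORCN stood out (7.75 in replicate 4, the others 7.65 to 7.67). WNT6, FZD10, SFRP4, RSPO3, RNF43 and WIF1 passed the adjusted p in no comparison.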

How the results depend on the processing

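The fold threshold set most counts. At a fold of 1.2, 7 members were higher and 7 lower in L-lactate against NaCl cells (5.49% and 4.87% of all clusters), L-lactate against untreated cells gave 3 higher and 7 lower (7.15% and 6.58%), and 1 was higher and 6 lower in NaCl against untreated cells (2.47% and 2.97%). Other pathway genes then came to 14 higher and 9 lower, 10 higher and 9 lower, and 6 higher and 4 lower. With no fold threshold the members came to 9 higher and 8 lower, 5 and 13, and 2 and 8 in the same order of comparisons, and other pathway genes to 18 and 16, 22 and 17, and 14 and 9, where all clusters gave 10.7% and 11.5%, 13.3% and 13.7%, and 6.13% and 5.81%. Quantile normalizing again left 1 member higher in L-lactate against untreated cells, since FZD5 was then at 0.58, and either that or centring the arrays called 1 other pathway gene, PORCN, higher in NaCl against untreated cells.

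Leaving out single arrays moved the members higher in L-lactate against untreated cells between 0 and 2. FZD5 (0.57 to 0.58) was lost without L-lactate replicate 5 or untreated replicate 2, 3 or 5, and WNT5A (0.58) without untreated replicate 3 or 4. Other pathway genes lower in that comparison ranged from 1 to 2, SNAI2 being added at -0.59 without untreated replicate 5, and those higher in NaCl against untreated cells from 0 to 1, PORCN being added without NaCl replicate 1 or 4 or untreated replicate 4. Those higher in L-lactate against NaCl ranged from 4 to 6: DAAM2 was lost without L-lactate replicate 5 (0.55) or NaCl replicate 4 (0.58), and NRCAM (0.57 to 0.58) without L-lactate replicate 2 or 3 or NaCl replicate 1 or 4. NRCAM in NaCl against untreated cells was lost without NaCl replicate 4 (-0.58) or untreated replicate 4 (-0.53) or 5 (-0.58). TCIM, FZD1, LEF1 and WNT5B kept their calls in all of these, and no called value turned direction. Some members past only the adjusted p lost it in at least 1 alternative. In L-lactate against NaCl cells it reached 0.086 for WNT10B, 0.081 for FRZB and 0.12 for DKK3. Against untreated cells it reached 0.057 for FZD7, 0.066 for LGR5 and 0.078 for DKK3 in L-lactate cells, and 0.082 for WNT2B in NaCl cells.

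Arrays with the same replicate number did not deviate together (correlations of -0.0653 to 0.0655 over 15 pairs). This cannot show whether they came from the same cell pool, since 1 pool for all cultures could give the same values. The fit with the replicate block left the members at 1 higher and 1 lower, 2 and 4, and 0 and 2, and the other pathway genes at 6 and 2, 5 and 1, and 0 and 3. The methods' t-test called 2, 6 and 2 members, unadjusted or adjusted. FZD1, FZD5 and WNT5A lie near the fold threshold. Of the 43 members, 19 had a mean signal below the median of all clusters, and how far dim signal limits the detection of small differences was not tested.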
